A study of Mus musculus with 4 samples.

Results

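The matrix metalloproteinases (MMPs), their tissue inhibitors (TIMPs) and the ADAMTS proteases are the main enzymes and inhibitors that remodel the extracellular matrix of the heart. They were taken as the protein-coding mouse genes whose symbol is Mmp, Timp or Adamts followed by a number. The rule gave 45 genes of 21728 on chromosomes 1 to 19 and X, made up of 22 MMP, 4 TIMP and 19 ADAMTS genes. Mmp1a, a polymorphic pseudogene in the annotation used, was not among them. The rule reads gene symbols and no measured value.

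MMPs are zinc-dependent proteases that are made as inactive proenzymes, and most are secreted, while the membrane-type MMPs stay on the cell surface. TIMPs bind the active site of these enzymes and block it. ADAMTS enzymes are secreted proteases that carry thrombospondin repeats, and they cut proteoglycans such as versican and aggrecan, process procollagens, or act on microfibrils. In the heart, fibroblasts are a known source of many of these proteins, and endothelial cells use some of them when the basement membrane is remodelled.

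Nuclei came from whole hearts of male C57BL/6 mice aged 8 to 12 weeks with the genotype NuTRAP/Cdh5-Cre. In these mice Cre under the control of Cdh5, the gene of VE-cadherin, switches on a GFP tag of ribosomes. Nuclei that sorted as GFP+ were taken as endothelial. By the paper's methods, single nuclei of diploid DNA content were selected before the GFP gate, so nuclei of higher DNA content were left out. Both groups carried the same alleles and differed only in the GFP gate, with 2 libraries for each. The GFP- group is the mixture of the unlabelled heart nuclei that passed these gates, which can hold cardiomyocytes, fibroblasts, mural cells and others. Blood cells that descend from Cdh5-expressing progenitors can carry the tag in such mice.

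Open chromatin was measured by ATAC-Seq, in which the Tn5 transposase cuts accessible DNA. The data used here are 1 peak list per group, which the authors called from both replicates together. The GFP- list held 78912 peaks that covered 52.1 Mb, and the GFP+ list held 65008 peaks that covered 41.8 Mb. Because a list has no value per replicate, no test between groups was possible and no p-value is given. Peaks were compared by rank, which is the percentage of the other peaks of a list with a smaller area. Area is the caller's signal summed over the peak, and a rank of 0 stands for no peak. A rank difference is the GFP+ rank minus the GFP- rank, in points. Differences of more than 20 points are counted below as a rule of size, not as a test. In sorted bulk nuclei, fewer cells with an open site and a less open site per cell cannot be told apart.

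The labels of the groups were checked at start peaks of marker genes. Endothelial markers had a start peak for 14 of 14 genes in GFP+ and for 9 of 14 in GFP-, with a median difference of 57.8 points. Cdh5 itself ranked at 85.3 in GFP+ and at 18.0 in GFP-, while Tek, an endothelial receptor, ranked lower in GFP+, at 54.1 against 81.1. Fibroblast markers had one for 7 of 9 genes in GFP- and for 2 of 9 in GFP+, where Pdgfra (87.0) and Col1a1 (80.7) kept a peak, and Lum and Postn had none in either list. Mural cell markers had one for 8 of 8 genes in GFP- and 4 of 8 in GFP+. All 7 cardiomyocyte markers had a start peak in both lists, with a median difference of -4.19 points. Macrophage markers had a start peak for 1 of 5 genes in each list.

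The first question was which genes of the families are open at a transcription start in endothelial and in non-endothelial nuclei. A start peak overlaps the 250 bp on either side of any annotated transcript start of the gene, and the highest ranked one was kept. In GFP-, 29 of the 45 genes had a start peak (64.4%, 49.8 to 76.8% as the Wilson 95% interval), where the share over all protein-coding genes was 61.8%. In GFP+, 26 did (57.8%, 43.3 to 71.0%), where it was 59.8%. These shares are close to the background. The lists shared 24 of these genes. Mmp2, Mmp8, Mmp16, Mmp19 and Timp1 had a start peak in GFP- only, which is 5 of the 31 genes with one in either list (16.1%), where the share over all genes was 4.71%. Timp4 and Adamts19 had one in GFP+ only, where the share over all genes was 1.46%.

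The open starts ranked lower in endothelial nuclei. Over the 31 genes the median difference was -5.22 points (95% interval from order statistics -21.4 to -1.85), and over the 13626 protein-coding genes with a start peak it was -0.814 (-0.865 to -0.772). The GFP+ rank was the lower one at 29 of the 31 genes and the higher one at 2. It was lower by more than 20 points at 10 of them (32.3%), where 7.33% of all genes were. It was higher by more than 20 points at 1, Timp4, where 1.94% of all genes were. Ranked by -log10 p, the median was -17.3 points, against -1.20 over all genes, and 14 genes were lower by more than 20 points. Differences of at most 5 points were found at 13 genes, among them Mmp19 and Timp1, which ranked low in GFP- and had no GFP+ peak. For these counts of 14 and 13 genes the share over all genes is not given here. Of genes with a start peak in both lists, 24 of 24 members (100%, 86.2 to 100%) and 71.1% of all 12785 genes ranked lower in GFP+. That count depends on the list sizes and on the measure ranked. With the same number of strongest peaks taken from each list, 18 of 24 members and 36.4% of all genes ranked lower, the median over all genes turned to 0.417 and that of the members was -4.65. The 6 that ranked higher were Adamts8, Adamts9, Adamts17, Mmp11, Mmp15 and Mmp24. By area per bp 19 of 24 members and 63.1% of all genes ranked lower, and by -log10 p 22 of 24 and 74.0%. Genes are not independent replicates, and these intervals cover counting error only.

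**Figure D1:**
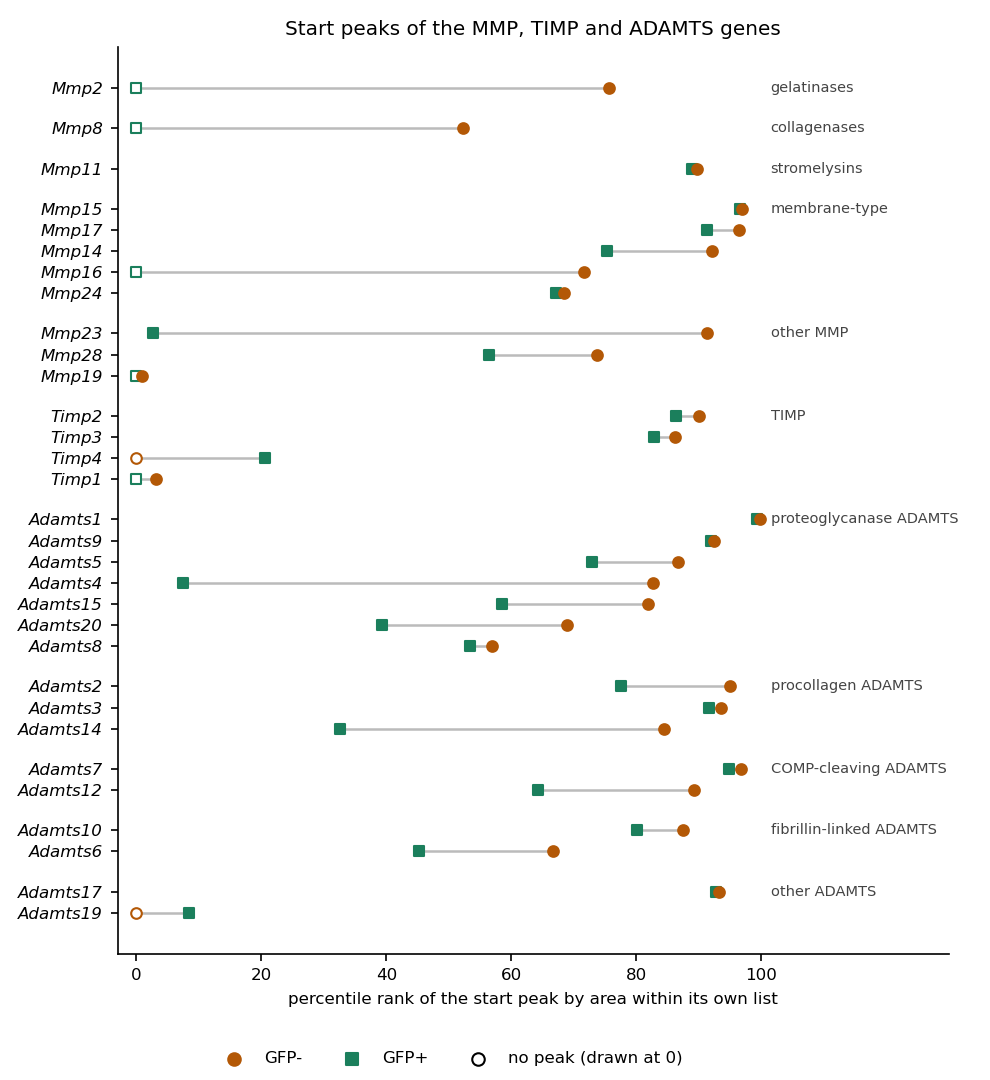
Rank by area (percentile) of the start peak of each of the 31 genes with a start peak, in GFP- (circles) and GFP+ (squares), grouped by role, with open symbols at 0 where the list had no peak. Mmp23, Mmp2, Adamts4 and Mmp16 show the widest gaps, and Timp4 and Adamts19 are the genes whose GFP+ symbol lies to the right.

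**Figure D2:**
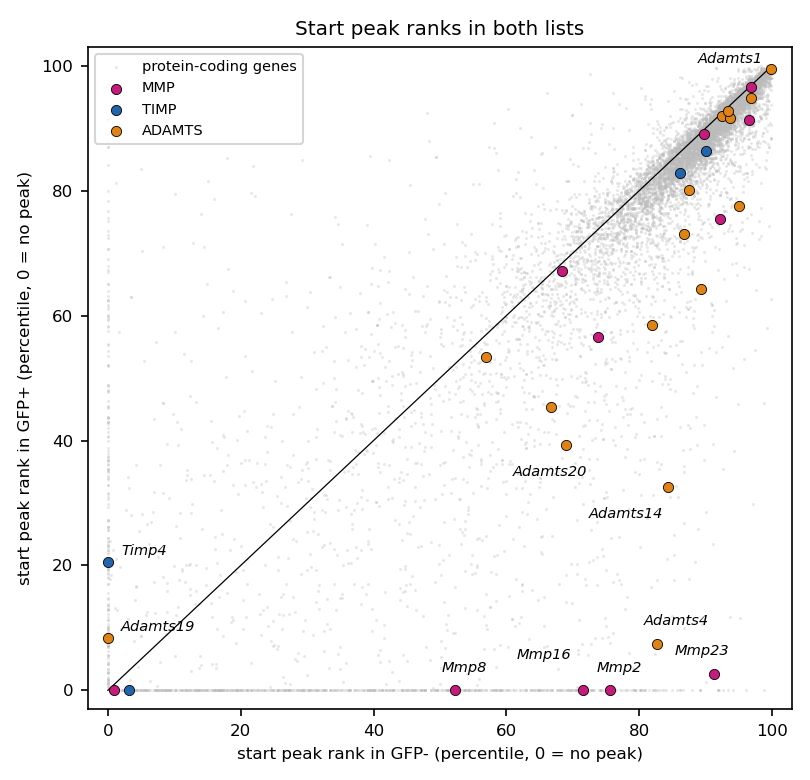
Start peak rank in GFP- (x axis) against GFP+ (y axis) for all 13626 protein-coding genes with a start peak in either list (grey) and for the MMP, TIMP and ADAMTS genes (coloured), with the line of equal rank. Members lie along the line at the upper right or below it, and 29 of 31 lie below.

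The plot of ranks by role shows that the size of the difference varied widely within the families. Of the 22 MMP genes, 11 had a start peak in GFP- and 7 in GFP+, and the median difference was -16.7 points (-75.6 to -0.71). The ADAMTS genes had 15 and 16 of 19 with a median of -10.5 (-25 to -0.546). The TIMP genes had 3 in each list with a median of -3.29, and 4 genes are too few for an interval. The intervals of the MMP and ADAMTS genes overlap, so a difference between the families is not shown. In the scatter of both ranks, Adamts1, Mmp15 and Adamts7 sit in the upper right corner, on the line of equal rank or just below it.

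The secreted collagenases, stromelysins, matrilysin and elastase, which degrade fibrillar collagen and other matrix proteins in wounds and inflammation, were mostly closed in both lists. Mmp13, Mmp12, Mmp1b, Mmp3, Mmp10, Mmp8, Mmp27, Mmp20 and Mmp7 lie together on chromosome 9 from 7272514 to 7699585 (GRCm38), a stretch of 427 kb. The stretch held 7 peaks in GFP-, or 16.4 per Mb where chromosome 9 held 34.4 per Mb. In GFP+ it held 2, or 4.68 per Mb where the chromosome held 27.9. Of its 9 genes, Mmp8, the neutrophil collagenase, was the 1 with a start peak. That peak of 280 bp ranked at 52.3 in GFP- and had no counterpart in GFP+. It lies outside 100 bp of the start, and with that window no gene of the cluster had a start peak.

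Of the 9 promoters of this cluster, 6 hold the same word, all of them at genes with no start peak, and those of Mmp8, Mmp20 and Mmp27 do not. The word is that of AP-1 (TGACTCA or TGAGTCA, which read as each other on the opposite strand), the factor known to induce collagenase genes. Shown here are the 120 bases before the RefSeq start (GRCm38.p6), written along the strand of the gene with the AP-1 word in capitals. They lie, in order, at chr9:7272394-7272513, chr9:7445702-7445821, chr9:7502222-7502341 and chr9:7691970-7692089 on the plus strand.
Mmp13: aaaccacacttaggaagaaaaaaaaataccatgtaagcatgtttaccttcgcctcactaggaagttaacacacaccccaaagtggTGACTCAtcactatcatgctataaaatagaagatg
Mmp3: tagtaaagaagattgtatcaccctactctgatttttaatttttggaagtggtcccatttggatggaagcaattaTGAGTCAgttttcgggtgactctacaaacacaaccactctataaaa
Mmp10: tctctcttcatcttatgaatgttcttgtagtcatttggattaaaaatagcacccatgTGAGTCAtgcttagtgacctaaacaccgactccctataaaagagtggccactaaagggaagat
Mmp7: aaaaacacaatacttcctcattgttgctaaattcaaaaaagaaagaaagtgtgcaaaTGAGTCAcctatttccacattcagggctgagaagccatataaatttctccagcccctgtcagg

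The word begins 35 bases before the start in Mmp13, 46 in Mmp3, and 63 in both Mmp10 and Mmp7, and Mmp12 (44) and Mmp1b (93) hold it too. RefSeq promoters were at hand for 31 of the 45 genes. When 250 bases before to 50 after every annotated start were read from the genome for all 45, the AP-1 word was present for 7 of 14 genes with no start peak (50%, 26.8 to 73.2%), the 6 above and Mmp9. It was present for 2 of 31 genes with a start peak (6.45%, 1.79 to 20.7%), Adamts10 and Mmp19. Over all protein-coding genes the share was 10.3% of those with no start peak and 14.0% of those with one. The 6 genes are neighbours in 1 cluster and so not independent counts. Among genes with no start peak, Mmp9 was the only hit outside it. A link between the word and closed starts was not tested. A match of letters is not a bound site.

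The 14 genes with no start peak in either list were Adamts13, Adamts16, Adamts18, Mmp1b, Mmp3, Mmp7, Mmp9, Mmp10, Mmp12, Mmp13, Mmp20, Mmp21, Mmp25 and Mmp27. Adamts13 encodes the protease that cuts von Willebrand factor, Mmp9 the gelatinase of leukocytes, and Mmp20 a protease of tooth enamel. Their starts were poor in CpG. In the 500 bp around the start, the ratio of observed to expected CpG had a median of 0.167 over these 14 genes (0 to 0.737). It was 0.702 over the 24 genes open in both lists (0.121 to 0.952). Over all genes these medians were 0.201 and 0.782. For the 5 genes open in GFP- only the median was 0.329.

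Gelatinases degrade denatured collagen and the collagen of basement membranes. Mmp2 was the open one of the pair, and its start peak ranked at 75.6 in GFP-, with no peak in GFP+. That peak ran from -383 to 660 bp around the start at chromosome 8 position 92827291. It had neighbours of rank 58.3 from -1272 to -821 bp and of rank 51.9 from 763 to 1474 bp, and GFP+ had no peak within 5 kb of the start. Of the 8 distal regions of Mmp2, 6 were also in GFP- only.

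Among the membrane-type MMPs, Mmp14 activates pro-Mmp2 at the cell surface together with Timp2. Mmp14 ranked at 92.1 in GFP- and 75.4 in GFP+, with peaks of 3046 and 1663 bp. Timp2 ranked at 90.1 and 86.3. The pair thus had start peaks in GFP+, where Mmp2 had none, but the difference at Mmp14 depended on the measure ranked. By -log10 p it was -40.1 points and by area per bp -25, and at Timp2 the values were -5.37 and -14.5. Mmp16 ranked at 71.6 in GFP- and had no GFP+ peak within 5 kb. Mmp15 differed little, at 96.9 and 96.6, and the GPI-anchored Mmp17 ranked at 96.5 and 91.3. Mmp24 ranked at 68.4 and 67.1 in peaks at an internal start. With the 5 prime end of the gene record its difference was -5.08.

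Mmp23, a membrane-tethered MMP with a cysteine array, had the widest gap of the families. Its start peak ranked at 91.3 in GFP- and at 2.68 in GFP+, a difference of -88.6 points. The GFP- peak was 2527 bp long with a summit -log10 p of 7.94, and the best GFP+ peak was 203 bp long with 4. Its summit lies over 1000 bp from any start, so the same GFP- peak is also counted among the distal regions below, as the 1 region that reaches a start of its own gene. Mmp28 ranked at 73.8 and 56.5. Mmp11, a stromelysin that furin activates inside the cell, ranked at 89.7 and 89.0, in peaks that also hold a start of Chchd10 in both lists. Mmp19 ranked at 0.981 in GFP- only, with an area of 206 where the smallest area in either list was 200.

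**Figure D3:**
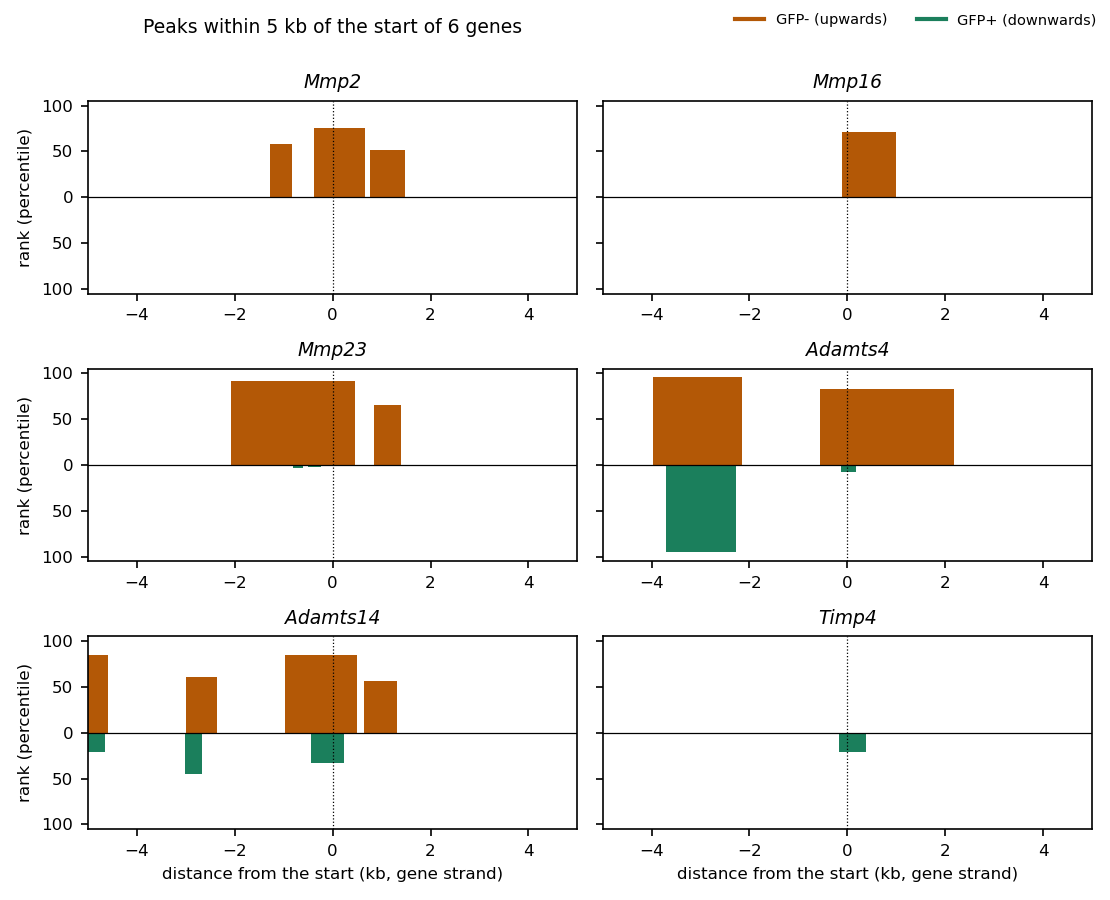
Peaks within 5 kb of the start of 6 genes, drawn as boxes at their distance from the start along the gene's strand (x axis, kb, peaks that reach farther end at 5 kb), with the percentile rank as height, GFP- upwards and GFP+ downwards. Mmp2 and Mmp16 have GFP- peaks alone, Timp4 has a GFP+ peak alone, and at Mmp23 and Adamts4 peaks of 2527 and 2748 bp in GFP- stand against ones of 203 and 322 bp.

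The TIMPs did not share a direction. Timp3, the inhibitor that binds to the matrix and also blocks ADAMTS enzymes, ranked at 86.2 in GFP- and 82.8 in GFP+. Timp4, which is known for its expression in the heart, had a start peak of 551 bp in GFP+ alone, at rank 20.6 with an area of 333. By the -log10 p of the summit its rank in GFP+ was 4.89 and by area per bp 3.78, so it leaves the count of genes past 20 points under these measures. Timp4 is also the 1 member in the study's set of endothelial genes, which was drawn from single-cell RNA data. Timp1, an inhibitor induced in injury, ranked at 3.13 in GFP- alone, with an area of 218.

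Proteoglycanase ADAMTS genes, whose products cut versican and aggrecan, had a start peak in both lists at 7 of 7 genes. Adamts1 had the highest mean rank of all members, 99.8 in GFP- and 99.4 in GFP+, and Adamts9 was close to equal at 92.4 and 91.9. Adamts8 ranked at 56.9 and 53.4. Adamts5 ranked at 86.7 and 73.0, but its GFP+ peak lies outside 100 bp of the start, and with that window the difference was -86.7. Adamts4 ranked at 82.7 and 7.46, a difference of -75.3 points that shrank to -5.44 when peaks were ranked by area per bp. Its GFP- peak was 2748 bp long and its GFP+ peak 322 bp long. Adamts15 ranked at 81.9 and 58.5, a direction that turned to 24.7 when ranked by area per bp. Adamts20 ranked at 68.9 and 39.3, in peaks at an internal start, and had no start peak in either list at the 5 prime end of the gene record.

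The procollagen N-proteinases, which trim fibrillar procollagens so that fibrils can form, were open in both lists. Adamts2 ranked at 95 in GFP- and 77.6 in GFP+, with peaks of 2434 and 1268 bp. Adamts14 ranked at 84.4 and 32.6, a difference of -51.7 points, and its peaks measured 1473 and 687 bp. Adamts3, which also takes part in the activation of the lymphatic growth factor VEGF-C, ranked at 93.6 and 91.7. The gap at Adamts14 was thus wide and the one at Adamts3 within 5 points.

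Of the remaining ADAMTS genes, Adamts7 and Adamts12 cleave the cartilage protein COMP. Adamts7 ranked at 96.8 and 94.9, and Adamts12 at 89.3 and 64.3. Adamts10, which is linked to fibrillin microfibrils, ranked at 87.5 and 80.1. Adamts6 ranked at 66.7 and 45.3 in a peak just downstream of its starts, but with the 5 prime end of the gene record alone, where a weaker peak lies, the difference was 1.06. Adamts17 ranked at 93.3 and 92.8. Adamts19 had a GFP+ peak alone, at rank 8.46 with an area of 247. Of the 7 genes with a start peak in one list, Mmp2, Mmp16 and Mmp8 thus ranked above 50 and the other 4 at 20.6 or below.

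The study's fibroblast gene set, drawn from single-cell RNA data, holds 6 of the members. Adamts2, Adamts5, Mmp2, Mmp14, Mmp23 and Timp2 had a median difference of -17.1 points, and GFP+ ranked lower at all 6. The whole fibroblast set had a median of -16.6 over 232 genes with a start peak, and the whole endothelial set had 2.08 over 169. The 38 members in neither these nor the study's other sets had a median of -3.47 over the 24 with a start peak. In 8 of these 24 the GFP+ rank was lower by more than 20 points, where 7.33% of all protein-coding genes with a start peak were. Start peaks of fibroblast and mural markers were also lower in GFP+, as given above, and the part of those cell types in the members' ranks was not tested.

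Other genes of matrix turnover, outside the families, were listed as activators, inhibitors, receptors and partners. Of these 42 genes, 36 had a start peak in GFP- and 35 in GFP+, and the median difference over 37 was -5.29 points (-11.6 to -1.13). GFP+ ranked lower at 30 and higher at 7, and by more than 20 points lower at 6 (16.2%) and higher at 0. Of all protein-coding genes with a start peak, 7.33% were lower and 1.94% higher by more than 20 points. Fap, a serine protease of activated fibroblasts, ranked at 66.1 in GFP- with no peak in GFP+. Thbs1 ranked at 86.7 and 35.9, and Thbs2 at 80.2 and 31.2, both thrombospondins that bind matrix proteases. Higher in GFP+ were Adam33 at 23.6 and 36.3, the urokinase receptor gene Plaur at 73.8 and 82.8, and Papln at 7.83 in GFP+ alone. Furin, the convertase that activates the membrane-type MMPs, ranked at 98.0 and 97.3, and Reck, a membrane inhibitor of MMPs, at 86.1 and 73.9.

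The next question was whether the families share distal open sites between the groups. Distal peaks have a summit in an intron or between genes, over 1000 bp from any start, and were given to the protein-coding gene with the nearest start. The nearest start need not be the gene a site acts on. GFP- had 271 distal peaks at 35 of the genes (77.8%), and GFP+ had 190 at 29 (64.4%), where 53.4% and 49.7% of all protein-coding genes had any. Of the GFP- peaks 57.6% (51.6 to 63.3%) overlapped a GFP+ peak, and over all genes 64.0% did. Of the GFP+ peaks 84.2% (78.4 to 88.7%) overlapped a GFP- peak, and over all genes 83.6% did. GFP- had more distal peaks at 26 of the 35 genes (74.3%), GFP+ had more at 7 (20%), and 2 had equal numbers. Over the 12125 protein-coding genes with a distal peak in either list, these shares were 47.6% (5769) and 17.4% (2114), and 4242 had equal numbers. Equal numbers were thus far more common over all genes, which lowers both of their shares. The members' shares are for this reason not directly comparable with them.

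Merging overlapping peaks gave 299 distal regions of 62684 in all. Both lists held 154 of them. GFP- alone held 115 (38.5%, 33.1 to 44.1%), where the share over all regions was 32.2%. GFP+ alone held 30 (10%, 7.12 to 14.0%), where it was 11.5%. The median difference was -9.70 points (-11.1 to -5.85), against -5.78 for all regions. GFP+ ranked lower by more than 20 points at 104 regions (34.8%), where 27.1% of all were. It ranked higher by more than 20 points at 20 (6.69%), where 8.65% of all were. In the regions of both lists the median was -2.67, and it was -2.75 over all such regions. Adamts2, Adamts20, Adamts5 and Timp3, chosen after their values were seen, held 50 of the GFP- only regions. Without these genes 33.3% of 195 regions were in GFP- only and the median was -7.85.

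**Figure D4:**
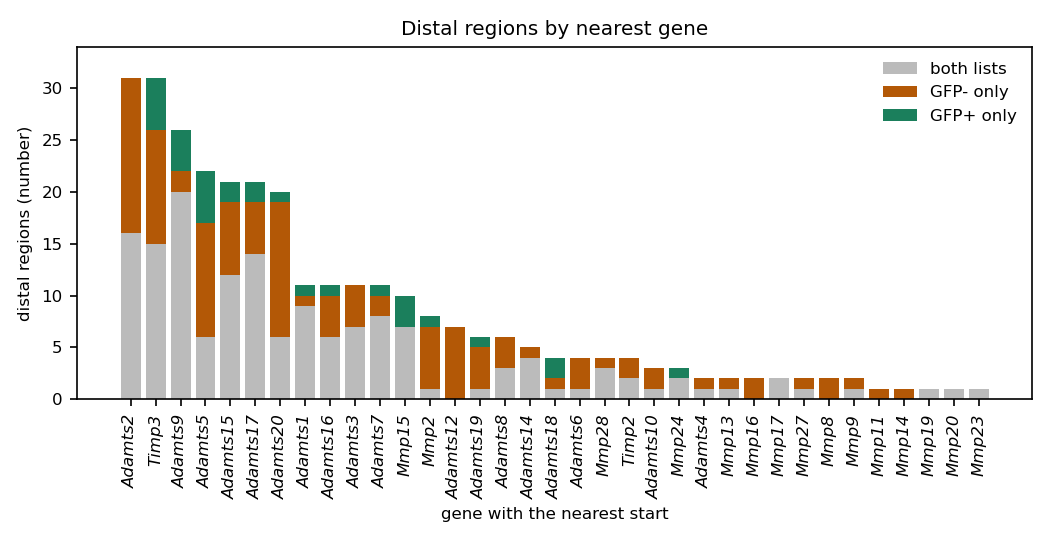
Number of distal regions (y axis) by the gene with the nearest start (x axis), split into regions of both lists (grey), GFP- only (orange) and GFP+ only (green). Adamts2 and Timp3 have the most, with 31 each, and Adamts12 has 7 in GFP- and none in GFP+.

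The genes differed widely in this split. Adamts2 had 31 regions, 16 in both lists and 15 in GFP- only, and 28 of them lie within the gene. Adamts20 had 13 of 20 in GFP- only, and Adamts12, whose start peak was present in both lists, had all 7 in GFP- only. At Adamts9 the pattern was another one, with 20 of 26 in both lists, 2 in GFP- only and 4 in GFP+ only. Mmp15 had 7 in both lists and 3 in GFP+ only, and Adamts1 had 9 of 11 in both. Timp3 had 15, 11 and 5, and 17 of its regions lie in another coding gene, Syn3, which surrounds it. Adamts5 had 6, 11 and 5. No distal peak was found at 10 members, and 8 of these had no start peak either.

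**Figure D5:**
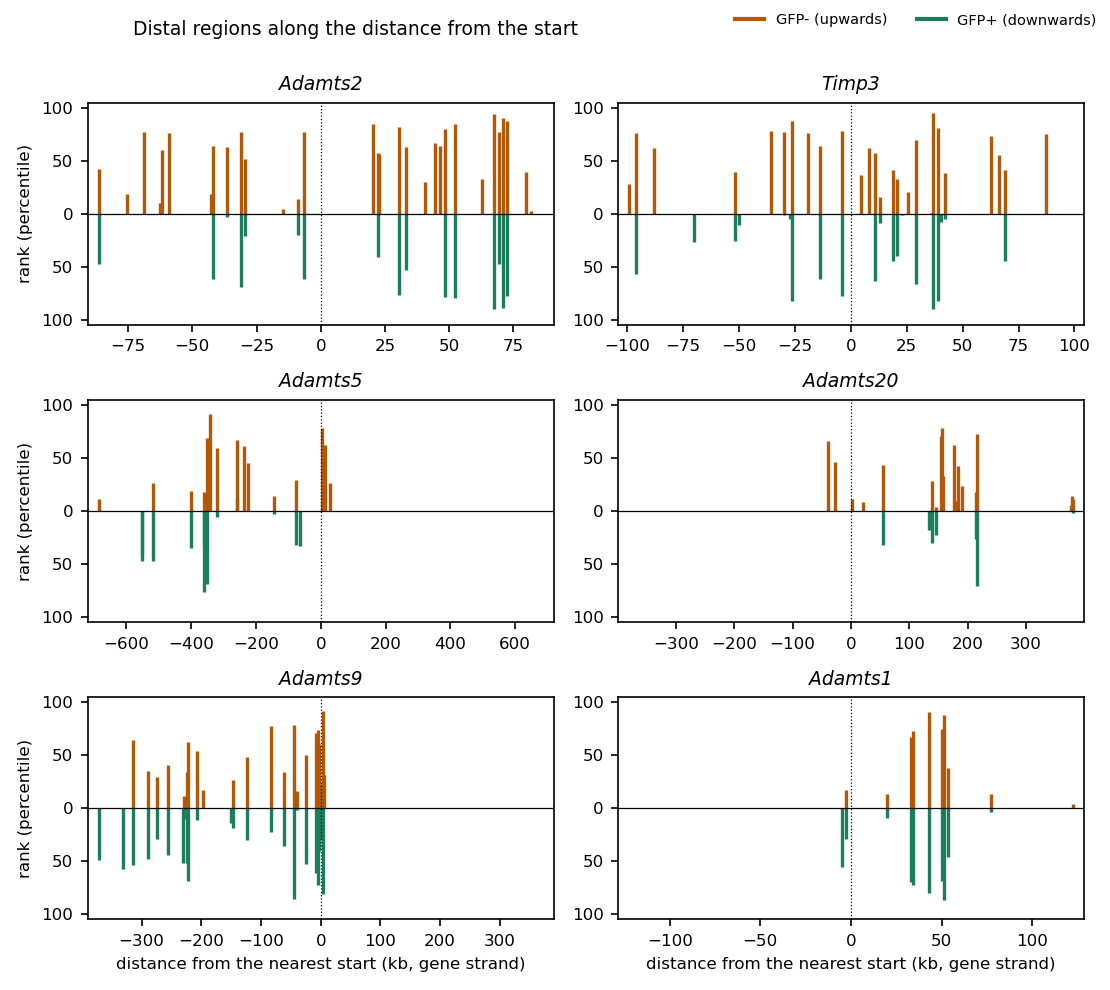
Distal regions of 6 genes at their distance from the nearest start along the gene's strand (x axis, kb), with the percentile rank in GFP- upwards and in GFP+ downwards. Adamts2, Adamts5 and Adamts20 show GFP- bars with no partner, while the bars of Adamts9 and Adamts1 mostly have one of like height.

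The 115 regions of GFP- alone reached higher ranks than the 30 of GFP+ alone. The same comparison over all regions is not given here. The highest lay 342 kb upstream of Adamts5 at chr16:86242691-86243754 and ranked at 91.9. It was followed by a site in an intron of Adamts2, 20.3 kb downstream of the start at chr11:50621494-50622943, which ranked at 84.5. A site 147 kb upstream of Adamts3 ranked at 81.1, an intron site 3.18 kb into Adamts5 at 78.8, and a site 35.7 kb upstream of Timp3 inside Syn3 at 78.3. For Adamts17 the highest in a single list ranked at 72.5, and for Adamts15 at 65.2, both in introns of the gene and in GFP-.

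Regions of GFP+ alone were led by sites around Adamts9 and Adamts1. The highest lay 331 kb upstream of Adamts9 at chr6:93274093-93274561 and ranked at 58.0, and others of Adamts9 lay 231 kb (51.7) and 371 kb (48.7) upstream. A site 4.67 kb upstream of Adamts1 at chr16:85807523-85807942 ranked at 55.7, and a site 553 kb upstream of Adamts5 at 47.0. Shared regions, named after their values were seen, ranked higher than either. An intron site of Adamts7 ranked at 96.0 in GFP- and 96.1 in GFP+, and one of Timp3, 36.9 kb downstream of the start, at 95.1 and 90.4.

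Short motif words were looked for, in either orientation, in windows of 200 bp centred on the summit, and no word is contained in another. They were AP-1 as above, ETS (CAGGAAGT), the E-box of the fibroblast factor TCF21 (AACAGCTG), TEAD (ACATTCC), SOX17 (CCATTGT), and MEF2 and NF1 by name. The windows printed here are those of the named regions that hold a word, along the strand of the nearest gene (GRCm38.p6), with the word in capitals. They are AP-1 in the highest GFP- only region of Adamts5 (chr16:86243284-86243483, minus strand), TEAD in its intron region (chr16:85898552-85898751, minus strand), SOX17 in GFP+ only regions of Adamts9 (chr6:93314719-93314918, minus strand) and Adamts5 (chr16:86454857-86455056, minus strand), and AP-1 in the shared region of Timp3 (chr10:86339638-86339837, plus strand).
Adamts5, 342 kb upstream: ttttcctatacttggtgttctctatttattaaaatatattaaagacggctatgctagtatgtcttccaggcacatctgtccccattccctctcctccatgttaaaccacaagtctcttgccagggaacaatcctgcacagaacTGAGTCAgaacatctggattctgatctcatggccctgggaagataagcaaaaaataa
Adamts5, 3.18 kb downstream: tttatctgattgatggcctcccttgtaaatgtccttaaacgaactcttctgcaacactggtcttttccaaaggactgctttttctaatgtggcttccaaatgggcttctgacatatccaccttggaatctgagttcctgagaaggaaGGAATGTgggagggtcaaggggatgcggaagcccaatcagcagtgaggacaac
Adamts9, 371 kb upstream: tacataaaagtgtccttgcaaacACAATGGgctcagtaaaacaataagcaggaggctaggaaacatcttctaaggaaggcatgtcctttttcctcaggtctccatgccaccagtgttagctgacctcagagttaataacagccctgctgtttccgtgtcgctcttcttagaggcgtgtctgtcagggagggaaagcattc
Adamts5, 553 kb upstream: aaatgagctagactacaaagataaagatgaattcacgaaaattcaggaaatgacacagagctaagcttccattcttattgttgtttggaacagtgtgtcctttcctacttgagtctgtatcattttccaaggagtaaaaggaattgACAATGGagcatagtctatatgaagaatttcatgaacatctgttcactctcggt
Timp3, 36.9 kb downstream: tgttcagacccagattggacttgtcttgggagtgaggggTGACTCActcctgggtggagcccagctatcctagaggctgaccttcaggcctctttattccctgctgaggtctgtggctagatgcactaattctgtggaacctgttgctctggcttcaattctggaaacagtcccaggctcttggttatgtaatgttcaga

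The AP-1 word was in 16 of the 115 members' regions of GFP- only (13.9%, 8.75 to 21.4%), where 11.9% of all such regions held it. It was in 7 of 154 shared regions (4.55%, 2.22 to 9.08%), where 7.46% did. The TCF21 E-box was in 12 of the 115 regions of GFP- only (10.4%, 6.07 to 17.4%), and in 5.87% of all such regions, which lies just below the interval. TEAD was in 22 of the 299 regions (7.36%, 4.91 to 10.9%), and in 4.67% of all regions, which also lies just below the interval. SOX17 was in 3 of 30 regions of GFP+ only (10%, 3.46 to 25.6%), and in 6.23% of all such regions. ETS was in 9 of 299 regions (3.01%) and MEF2 in 10 (3.34%), where 3.36% and 5.88% of all regions held them. ETS was in 0 of the 30 regions of GFP+ only, which allows a share of up to 10% by 3 counts of 30 and up to 11.4% by the Wilson interval, and in 5.90% of all such regions. NF1 was in 0 of 299 and in 2 of all 62684 regions, too few to compare. With several words and classes read, a share just outside an interval is a description.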

How the data were processed

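ATAC-Seq was done on sorted GFP+ and GFP- heart nuclei, with 2 libraries per group, which the labels number 1 and 2. Reads were trimmed (fastp), aligned to mm10 (bowtie2), filtered (samtools), freed of duplicates (Picard) and downsampled by the authors, who then ran Genrich in its ATAC mode on both replicates at once, leaving out mitochondrial, Y chromosome and blacklisted reads. The lists as deposited give the area, which is the signal summed over a peak, the score, which is the signal per bp up to a limit of 1000, and the -log10 p at the summit. Depth after downsampling and values per replicate are not analysed here, so no test was made.

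Genes and starts came from GENCODE M21 (GRCm38), read with Python 3.11.15, pandas 2.3.3 and pysam 0.24.0. Peaks overlap at 1 bp or more. Intervals for shares are Wilson 95%, and those for medians are binomial from order statistics. Named were all members with a start peak in a single list, the 6 widest differences each way, the 6 highest mean ranks, the 6 genes with most distal peaks and the highest single-list regions, and other members are given with their ranks. The gene families and lists were chosen with earlier results of these data known, although the rule for members reads symbols alone. Scripts were tested on simulated peaks, where 0 of 1112 overlap pairs differed from a direct comparison. Alternatives changed the start window, the starts, the ranking, the peaks kept, the distal rule, the overlap and the motif window.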

Additional observations from a re-analysis of the deposited data

How the results depend on the processing

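No paired analysis was possible because each list was called from both replicates together and holds no value per replicate, and for the same reason no replicate could be left out. Of 92 recomputed counts, shares and medians, 79 stayed within the interval or 1.5 times of the reported value and 13 moved. Counts and shares have no sign, so only the median differences could change direction, and 0 of them did. With the same number of strongest peaks from each list, 3 genes had a start peak in GFP- only, and 75.8% of the GFP+ distal peaks overlapped a GFP- peak. With the upper 75% of each list, 0 genes had a start peak in GFP+ only. No gene ranked higher in GFP+ by more than 20 points by -log10 p or among genes with both start peaks (0 in each). Giving peaks to the nearest start of any annotated gene left 163 and 113 distal peaks in GFP- and GFP+. An overlap of 50% of both peaks gave shared shares of 50.2% and 72.6%, where all genes had 55.0% and 70.3%. The median region difference was -12.3 by area per bp and -2.67 over regions of both lists. In whole peaks, AP-1 was in 10.4% of shared regions (14.8% of all) and TEAD in 12.4% (9.75% of all). Among single genes and regions, 250 of 271 recomputed differences kept their side of 20 points in size, and 19, at 12 genes or regions, changed sign. Of these, 14 were at differences of at most 20 points. Adamts6 turned to 1.06 with a window of 100 bp, the 5 prime end of the gene record or starts of protein-coding transcripts, and to 0.616 with a window of 1000 bp. Adamts15 turned to 24.7 by area per bp. The cause was not tested. The NF1 word, also respaced after the data were seen, was in 0 regions of the members.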
